A study of Mus musculus with 15 samples.

Results

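The comparison described here sets bleomycin against phosphate-buffered saline (PBS) in lungs that carry the R213G form of EC-SOD, an extracellular superoxide dismutase, on both alleles. Its members are 8 of the 15 libraries of the study, chosen by genotype in the labels: 4 R213G lungs after bleomycin and 4 R213G lungs after PBS. The other 7 libraries (4 bleomycin, 3 PBS) came from wild-type (WT) mice. All mice were C57BL/6, of both sexes, with an age of 11 weeks in the labels, where the protocol gives a range at dosing. Each mouse received a single intratracheal dose of 100 uL, either PBS alone or bleomycin at 1 U/mL, and lungs were taken 7 days later. Blood was washed out of every lung with PBS by way of the right heart, and RNA came from frozen lung ground to powder. Thus every group shares the instillation and the flush, and the R213G groups share the variant in every cell of the body. Which libraries are male or female is not stated, and no label says outright that each library is a separate animal, so p-values measure the spread between these libraries.

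Of 1424 mature microRNAs (miRNAs) in the deposited table, 818 were tested: those that reached more than 5 equalized counts in 3 or more of the 15 libraries. An equalized count is a read count brought to a common library size, and all levels and differences below are on the scale of log2(1 + equalized count). A miRNA was called when its adjusted p (limma, Benjamini and Hochberg over the 818 miRNAs) was under 0.05. Differences are given as bleomycin minus PBS with a standard error (SE), and each group had n = 4.

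A miRNA is a short RNA cut from a hairpin precursor, and it pairs with messenger RNAs mainly through its seed, bases 2 to 8 from the 5′ end. Either strand of the hairpin can be kept: the 5p strand comes from its left arm and the 3p strand from its right arm. Bleomycin breaks DNA and, given into the airways, causes inflammation followed by fibrosis. EC-SOD removes superoxide outside cells, and the R213G form binds the extracellular matrix poorly, so that more of the enzyme is found in fluids. In whole lung, a lower level can mean fewer cells of a type or less RNA per cell, and these cannot be told apart.

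The sequences that carry the results are shown 5′ to 3′ with the seed in capitals. They were taken from RefSeq (build GRCm38.p6), where 688 of the 818 tested miRNAs had an entry. The first pair are the 2 strands of 1 hairpin that both rose; the next pair share a seed and rose together; the pair after that share a seed and moved in opposite directions.
miR-21a-5p: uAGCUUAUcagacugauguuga
miR-21a-3p: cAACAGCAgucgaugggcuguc
miR-132-3p: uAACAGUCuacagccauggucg
miR-212-3p: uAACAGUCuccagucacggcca
miR-146a-5p: uGAGAACUgaauuccauggguu
miR-146b-5p: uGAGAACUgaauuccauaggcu
The following 4 share a seed across the p53-induced miR-34a and the miR-34 and miR-449 miRNAs of multiciliated cells. The 2 after them share the seed of the abundant miR-26, and the next 3 share the seed of miR-125.
miR-34a-5p: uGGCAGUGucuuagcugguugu
miR-449a-5p: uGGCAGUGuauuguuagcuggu
miR-449c-5p: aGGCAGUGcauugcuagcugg
miR-34b-5p: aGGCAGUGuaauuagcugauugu
miR-26a-5p: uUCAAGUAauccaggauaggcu
miR-26b-5p: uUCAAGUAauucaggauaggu
miR-125a-5p: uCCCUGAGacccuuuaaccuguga
miR-125b-5p: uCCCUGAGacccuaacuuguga
miR-351-5p: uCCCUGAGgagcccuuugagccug
The last 4 are the strands of 2 hairpins whose strand balance changed.
miR-335-5p: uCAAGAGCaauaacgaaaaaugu
miR-335-3p: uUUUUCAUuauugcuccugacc
miR-455-5p: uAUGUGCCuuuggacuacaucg
miR-455-3p: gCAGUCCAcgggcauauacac
Aligned base by base, miR-146a-5p and miR-146b-5p (both 22 bases) differ at 2 positions, the first at base 18. miR-132-3p and miR-212-3p differ at 5 positions from base 10 on, and miR-34a-5p and miR-449a-5p at 7 positions from base 10 on.

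In GRCm38.p6, miR-21a-5p lies at chr11:86584120-86584141 on the minus strand, over an exon of Vmp1 in the GENCODE annotation. miR-132-3p (chr11:75173723-75173744) and miR-212-3p (chr11:75173443-75173464) lie on the plus strand within an intron of the noncoding transcript 1700016P03Rik. miR-146b-5p (chr19:46342790-46342811, plus strand) is in an intron of Mfsd13a, and miR-146a-5p (chr11:43374435-43374456, minus strand) overlaps no annotated host gene. miR-449a-5p (chr13:113037549-113037570) and miR-449c-5p (chr13:113036008-113036028) are intronic in Cdc20b, both on the plus strand. miR-335-3p (chr6:30741354-30741375, plus strand) is intronic in the imprinted gene Mest, and miR-455-5p (chr4:63256867-63256888, plus strand) in the collagen gene Col27a1. miR-26a-5p has copies in introns of the phosphatase genes Ctdsp2 (chr10:126995543-126995564) and Ctdspl (chr9:119031811-119031832), and miR-26b-5p lies in an intron of Ctdsp1 (chr1:74394324-74394344). miR-351-5p lies at chrX:53053315-53053338 on the minus strand.

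The read depth of each library is unknown. Equalized counts summed to between 18087300 and 21071300 in the R213G bleomycin libraries and to between 21775500 and 23232900 in the R213G PBS libraries, so the sums did not overlap. The median level of the tested miRNAs was 6.04 to 6.18 after bleomycin and 5.95 to 6.01 after PBS. Both quantities moved with the treatment, and their part in the results was not tested directly, so the calls, the lists and the named miRNAs were recomputed on 3 other scales: equal library sums, equal library medians and quantile normalization. Of seed families and strand ratios only the numbers called were recomputed. A first principal component of the 8 libraries (52.4% of the variance) separated bleomycin from PBS. The second (15.8%) placed PBS 1 and PBS 3 (-7.97 and -7.76) with bleomycin 3 (-7.52), and PBS 2 and PBS 4 (7.39 and 7.82) at the other end. Library names carry running numbers: libraries 1 and 3 of each group fall in a lower block of numbers and libraries 2 and 4 in a higher block. The labels do not say what these numbers stand for, and each block holds 2 bleomycin and 2 PBS libraries. A limma term for the blocks, fitted to the 8 R213G libraries, was called for few of the 818 miRNAs. The higher block was higher for 2 of them and lower for 7. miR-654-3p, picked after its values were seen, followed the numbers: its levels were 4.19 and 3.75 in PBS 1 and 3 and 4.30 and 4.65 in bleomycin 1 and 3, and it was listed at 0 in PBS 2, PBS 4, bleomycin 2 and bleomycin 4. All 344 called miRNAs had the same sign in both number blocks. They were called from these same libraries, which makes this nearly certain in advance, so it does not test the blocks.

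Bleomycin changed 344 of the 818 tested miRNAs in R213G lungs (42.1%). Of these, 182 rose (22.2%) and 162 fell (19.8%), and 74 of the rises and 33 of the falls were of at least 2-fold. All 4 bleomycin libraries lay above all 4 PBS libraries for 179 miRNAs (21.9%) and below them for 142 (17.4%). The balance of rises and falls depended on the scale: it was 236 against 79 with equal library sums, 148 against 199 with equal medians and 162 against 173 after quantile normalization. On all 4 scales together, 140 miRNAs were called higher and 74 lower, and 30 of the 33 falls of at least 2-fold were among them. The median shift between scales was 0.21 with equal sums, -0.13 with equal medians and -0.13 after quantile normalization.

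On the deposited scale the counts of rises and falls differed with abundance. Of 42 miRNAs with a mean level of 16 to 22, 3 rose and 21 fell, and of 246 with a mean level under 4, 40 rose and 14 fell. For the latter the counts were 49 and 8 with equal sums, 32 and 16 with equal medians and 24 and 26 after quantile normalization, so the excess of rises at low levels was not seen on every scale. With equal library sums the counts for the most abundant miRNAs were 6 higher and 10 lower, and after quantile normalization 8 and 8, so the excess of falls among them held on the deposited scale and with equal medians (3 and 23), but not on all scales. In the PBS libraries the miRNAs that rose made up 3.41% to 3.76% of the library sum, and after bleomycin 9.66% to 10.5%. Those that fell made up 59.6% to 61.6% after PBS and 48.3% to 50.5% after bleomycin. These shares only describe the miRNAs already called.

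**Figure D1:**
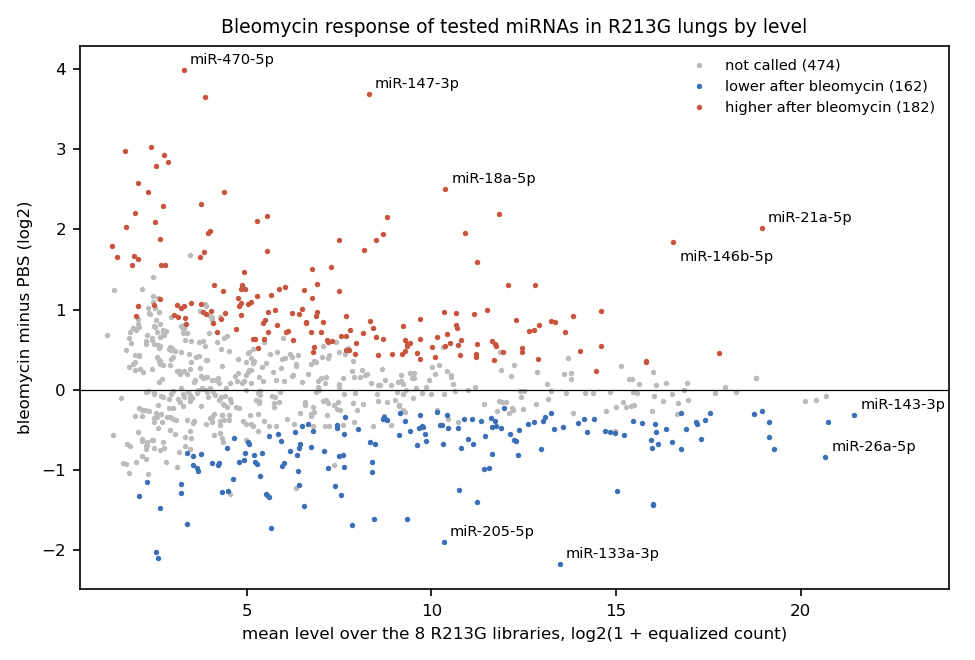
Each point is 1 of 818 miRNAs: the x axis is its mean level over the 8 R213G libraries, log2(1 + equalized count), and the y axis the difference between bleomycin and PBS (log2). The 182 called higher are red, the 162 called lower are blue and the rest grey; the largest rises lie at low levels, and miR-21a-5p and miR-146b-5p stand out among abundant miRNAs.

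Most miRNAs known to be induced by NF-kB or CREB signalling in activated macrophages and stroma rose: 15 of 21 tested strands were called higher and 1 lower, with a median difference of 1.50 against 0.05 over all 818. Over all 818, 22.2% were called higher and 19.8% lower, the shares to set beside the counts of this and later lists. The lists were chosen with earlier results of these data known, so these counts are descriptions and no list was tested as a set. Strands of 1 hairpin are counted separately though they share a precursor. On all 4 scales, 13 of the 15 rises held. The count includes miR-147-5p, whose PBS mean of 0.21 lies under the minimum of the filter, which partly sets its difference. miR-21a-5p, an oncomiR and a fibrosis-linked miRNA of macrophages and fibroblasts, stood at 17.86, 17.93, 18.01 and 17.94 after PBS and at 19.86, 19.89, 20.14 and 19.91 after bleomycin. Every bleomycin library lay far above every PBS library. The rise was 4.04-fold (2.02 ± 0.13 SE on the log2 scale, adjusted p = 2.22e-08), and the share of the library sum went from 1.12% to 5.27%. Its passenger strand miR-21a-3p, the rarer strand, rose by 2.20 ± 0.15 (adjusted p = 3.2e-08), from 10.52, 10.84, 10.79 and 10.79 to 13.08, 12.81, 12.96 and 12.87.

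The CREB-driven cluster of miR-132 and miR-212 rose on all 4 strands. miR-212-3p was at 7.42, 7.47, 7.65 and 7.70 after PBS and at 9.40, 9.43, 9.41 and 9.46 after bleomycin, a rise of 1.86 ± 0.12 (adjusted p = 2.22e-08). miR-132-3p, the more abundant guide with the same seed, was at 10.41, 10.33, 10.62 and 10.37 and then at 12.26, 12.02, 11.95 and 11.89, a rise of 1.60 ± 0.13. The passenger strands miR-212-5p and miR-132-5p rose by 1.87 ± 0.13 and 1.53 ± 0.15. No library of either group overlapped the other for any of these strands.

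The miR-146 miRNAs, which damp Toll-like receptor signalling by repressing the adaptors Traf6 and Irak1, split. miR-146b-5p was at 15.33, 15.85, 15.59 and 15.70 after PBS and at 17.38, 17.38, 17.85 and 17.22 after bleomycin, a rise of 1.84 ± 0.15 (adjusted p = 1.55e-07). miR-146a-5p, with the same seed, was at 16.27, 16.47, 16.38 and 16.21 and then at 15.63, 15.46, 16.04 and 15.27, a fall of 0.73 ± 0.15 on the log2 scale (adjusted p = 0.00136). Both calls held on all 4 scales, and the order of the 2 changed: miR-146a-5p was higher in each PBS library and miR-146b-5p in each bleomycin library.

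Among the rest of the list, miR-147-3p, a miRNA induced by Toll-like receptors in macrophages, showed the largest rise of any called miRNA with a mean level above 8. Its levels were 5.94, 6.82, 6.35 and 6.73 after PBS and 10.07, 10.22, 10.11 and 10.19 after bleomycin, a 12.9-fold rise (3.69 ± 0.40, adjusted p = 4.14e-06). miR-155-5p, which promotes inflammatory activation of macrophages and lymphocytes, rose by 1.00 ± 0.17, from 10.99, 10.92, 11.20 and 10.93 to 11.96, 12.02, 12.06 and 11.99. The 5 strands that were not called belonged to miR-146a, miR-187, miR-9 and miR-222.

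**Figure D2:**
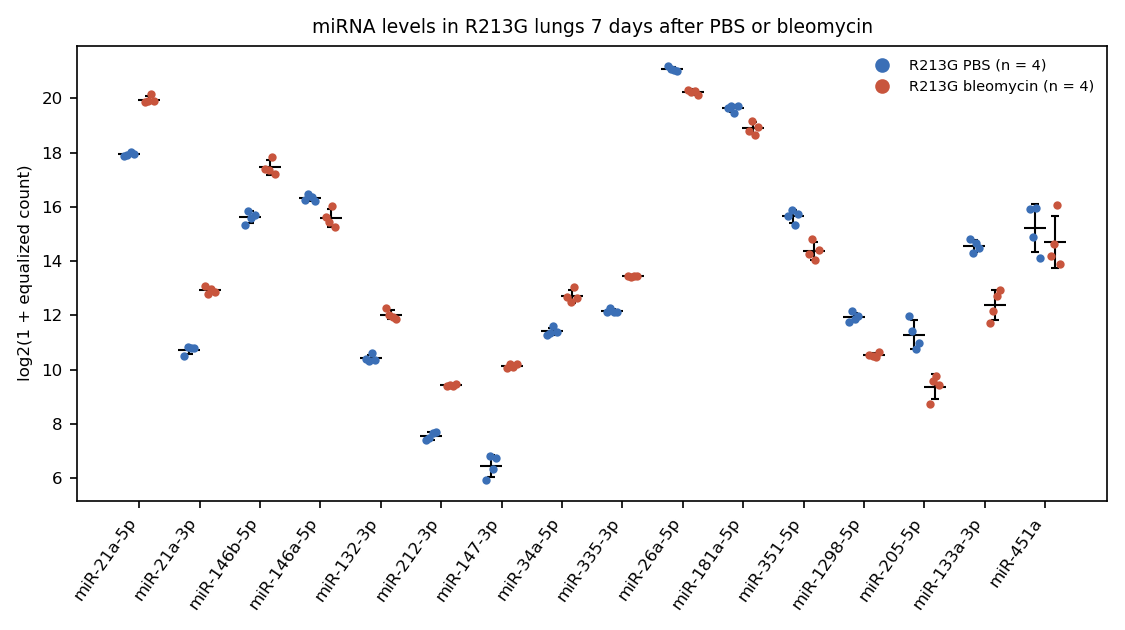
Levels, log2(1 + equalized count), of 16 miRNAs in each R213G library; points are libraries (blue PBS, red bleomycin) and bars are the mean ± SD, n = 4. miR-21a-5p goes from 17.86 to 18.01 after PBS to 19.86 to 20.14 after bleomycin, the miR-146 pair changes order, and miR-451a overlaps between groups.

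Myeloid miRNAs rose in part, with 3 of 6 tested strands called higher (22.2% over all 818) and none lower (median 0.61), all 3 on every scale. miR-511-3p, from an intron of the mannose receptor gene Mrc1 of macrophages, rose by 1.74 ± 0.19 (adjusted p = 4.2e-06), from 7.28, 7.20, 7.64 and 7.10 to 8.96, 8.85, 9.29 and 9.08. miR-142a-3p, found in all blood-derived cells, rose by 0.85 ± 0.20 (adjusted p = 0.00255). Its partner miR-142a-5p differed by 0.21 ± 0.11 (adjusted p = 0.137) and was called with equal sums (0.43) and after quantile normalization (0.41). It was also called at an unchanged difference with the replicate block (adjusted p = 0.0366) and with the term for library number (adjusted p = 0.0308). The guide strand of the neutrophil miRNA miR-223, miR-223-3p, was at 13.26, 12.63, 12.79 and 12.98 after PBS and 12.65, 12.61, 12.96 and 12.73 after bleomycin. These overlap, and the difference was -0.18 ± 0.15 (adjusted p = 0.356), or 0.032 with equal library sums. The miR-223-5p strand rose by 0.71 ± 0.15 (adjusted p = 0.00132).

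Of the lymphocyte miRNAs, 8 of 12 tested strands were called lower and 1 higher, with a median of -0.54, and with equal sums 4 lower and 2 higher. Only 3 of the falls held on all 4 scales, those of miR-181a-5p, miR-181c-5p and miR-181d-5p, miRNAs that are abundant in developing lymphocytes but are made by other lung cells too. miR-181a-5p was at 19.65, 19.70, 19.46 and 19.71 after PBS and at 18.81, 19.17, 18.64 and 18.96 after bleomycin, a fall of 0.74 ± 0.13 on the log2 scale (adjusted p = 0.0005). miR-150-5p, a miRNA of mature B and T cells, was at 16.70, 16.33, 16.53 and 16.32 and then at 15.71, 16.10, 15.47 and 15.85. It fell by 0.69 ± 0.15 (adjusted p = 0.00164), and the call was lost after quantile normalization (-0.39).

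Red cell miRNAs varied widely between libraries of 1 group. The erythroid miR-451a was at 15.91, 14.91, 15.95 and 14.11 after PBS and at 14.17, 14.63, 16.08 and 13.91 after bleomycin. The groups overlap, and the difference of -0.52 ± 0.44 was not called (adjusted p = 0.355). Without bleomycin 3, the highest library of its group, it was -0.98 and called. Of the 7 tested erythroid strands, 5 were called lower and none higher on each of the 4 scales (median -1.44). Among these, miR-486a-5p was at 17.32, 16.43, 17.25 and 15.84 and then at 14.50, 15.59, 16.27 and 14.69, with the groups overlapping, a fall of 1.45 ± 0.38 on the log2 scale (adjusted p = 0.00645). Of the 5 lower strands, 4 belong to miR-486a and miR-486b, which share reads and cannot be counted apart, so these largely set the median. The remaining lower strand was miR-144-5p. Its opposite strand miR-144-3p, like miR-451a, was not called, and its difference of 0.14 was the highest of the list. In these flushed lungs PBS 1 and PBS 3 carried more red cell miRNA than PBS 2 and PBS 4.

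Of the 4 tested strands of the endothelial miR-126, 2 were called lower and none higher on the deposited scale, and with equal sums none lower and 2 higher (median -0.11 and 0.10). miR-126a-3p, the main miRNA of endothelium, was at 19.35, 19.40, 19.31 and 19.27 after PBS and at 19.20, 18.81, 19.15 and 18.56 after bleomycin, all below. The fall of 0.41 ± 0.13 (adjusted p = 0.0188) was not called without bleomycin 4 (-0.28), with equal sums (-0.19) or after quantile normalization (-0.09). The opposite strand miR-126a-5p differed by 0.15 ± 0.12 (adjusted p = 0.327) and was called higher with equal sums (0.36). Values of miR-126b-3p were nearly the same as those of miR-126a-5p, and the 2 cannot be counted apart.

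Epithelial miRNAs were mixed. Of 23 tested strands 11 were called lower and 3 higher (median -0.30), but with equal sums the counts were 4 lower and 5 higher. The 3 that fell on all 4 scales came from miR-205 and miR-31, and of these miR-205-3p, named for its level after it was seen, had a bleomycin mean under the minimum of the filter. miR-205-5p, a miRNA of basal and other stratified epithelial cells, was at 11.98, 11.42, 10.77 and 10.97 after PBS and at 8.74, 9.57, 9.76 and 9.44 after bleomycin, a 3.74-fold fall (-1.90 ± 0.34, adjusted p = 0.000489). miR-31-5p fell by 0.82 ± 0.12 (adjusted p = 7.99e-05), from 12.81, 12.88, 12.58 and 12.80 to 11.96, 12.09, 11.98 and 11.75. miR-184-3p, known from corneal and other epithelia, went the other way: it rose by 2.16 ± 0.19 (adjusted p = 2.75e-07), from 7.16, 7.70, 8.05 and 7.96 to 9.79, 9.82, 10.18 and 9.70.

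The miR-200 miRNAs, which hold cells in an epithelial state by repressing Zeb1 and Zeb2, showed small differences. miR-200b-3p and miR-429-3p fell by 0.43 ± 0.09 and 0.49 ± 0.10, and neither call was kept after quantile normalization (-0.22 and -0.23). That of miR-200b-3p was also lost with equal sums (-0.21). miR-200c-3p was at 14.04, 13.99, 13.94 and 13.96 and then at 13.81, 13.38, 14.08 and 13.50, and its difference of -0.29 ± 0.12 was not called (adjusted p = 0.0734). It was called without bleomycin 3 (-0.42), with equal medians (-0.42) and after quantile normalization (-0.35). miR-200c-5p, the rare strand, rose by 0.63 ± 0.21 (adjusted p = 0.0235), and this call was lost without bleomycin 1 (0.59), bleomycin 3 (0.44) or PBS 4 (0.60), with equal medians (0.49) and after quantile normalization (0.46).

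Of the 9 tested strands of the multiciliated-cell miRNAs, 5 were called higher and 1 lower (median 0.91), and the 5 rises, all from the miR-449 cluster, held on every scale. The PBS means of miR-449b (1.58) and miR-449c-3p (0.89) lie under the minimum of the filter, so their differences are partly set by the filter, and without them 3 rises are left. Among these, miR-449a-3p had a PBS mean of 2.61, close to that minimum. miR-449c-5p was at 9.86, 9.96, 9.58 and 10.37 after PBS and at 12.06, 12.03, 11.82 and 11.69 after bleomycin, a rise of 1.95 ± 0.26 (adjusted p = 3.2e-05). miR-449a-5p, the abundant member, rose by 0.91 ± 0.22 (adjusted p = 0.00405), from 13.44, 13.56, 12.72 and 13.76 to 14.39, 13.96, 14.81 and 13.98. Within the lower block of library numbers its difference was 1.52 and within the higher block it was 0.31. The other ciliated-cell members were not called higher: miR-34b-5p, with the same seed, differed by 0.31 ± 0.22 (adjusted p = 0.284).

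The p53 target miR-34a, which slows the cell cycle, rose on both strands. miR-34a-5p was at 11.29, 11.37, 11.61 and 11.38 after PBS and at 12.68, 12.49, 13.05 and 12.63 after bleomycin, a rise of 1.30 ± 0.11 (adjusted p = 3.14e-07). miR-34a-3p rose by 2.11 ± 0.26 (adjusted p = 2.14e-05).

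Of 11 tested strands of striated muscle miRNAs, 5 were called lower, none higher and 6 were not called (median -0.94), and 3 of the falls held on all 4 scales. miR-133a-3p, a miRNA of skeletal and heart muscle, was at 14.81, 14.31, 14.67 and 14.48 after PBS and at 11.72, 12.18, 12.71 and 12.94 after bleomycin, a 4.54-fold fall (-2.18 ± 0.39, adjusted p = 0.000429). Its companion miR-1a-3p fell by 1.62 ± 0.45 (adjusted p = 0.00877), from 10.68, 9.72, 10.40 and 9.79 to 7.73, 8.20, 9.46 and 8.72. Of the heart miRNAs, miR-208b-3p fell by 0.45 ± 0.15 (adjusted p = 0.0218), a call lost without bleomycin 4 (-0.36), PBS 2 (-0.39) or PBS 4 (-0.44), and with equal sums (-0.24). Mouse pulmonary veins hold heart muscle, and how much of it or of attached tissue was in each sample was not tested.

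Smooth muscle and mesenchymal miRNAs went both ways, with 8 of 21 strands called higher and 8 lower on the deposited scale (median -0.04). The counts were 10 higher and 1 lower with equal sums (median 0.17), 5 and 9 with equal medians (median -0.17) and 8 and 6 after quantile normalization (median 0.10). miR-143-3p, the most abundant miRNA of every library and a miRNA of smooth muscle, was at 21.74, 21.49, 21.49 and 21.66 after PBS and at 21.13, 21.23, 21.52 and 21.25 after bleomycin. Its fall of 0.32 ± 0.10 (adjusted p = 0.0204) was not called without bleomycin 1 (-0.26), PBS 1 (-0.27) or PBS 4 (-0.30), nor without the filter, with equal sums (-0.10) or after quantile normalization. The fibroblast miRNA miR-214-3p rose by 0.86 ± 0.12 (adjusted p = 5.2e-05), from 11.78, 11.85, 11.91 and 11.91 to 12.86, 12.60, 12.58 and 12.86, and this held on every scale. miR-125b-1-3p, a passenger strand, rose by 0.96 ± 0.13 while its guide miR-125b-5p fell by 0.41 ± 0.09 (adjusted p = 0.00174), a fall not called with equal sums (-0.20). The guide comes from 2 loci and this passenger strand from 1 of them, so the pair does not compare the strands of 1 hairpin.

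Of 22 tested strands of miRNAs known from liver, brain, gut and pancreas, 4 were called higher and 3 lower (median 0.29). These are smaller shares than the 22.2% and 19.8% over all 818, and with equal sums the list gave 4 and 1. The most abundant, miR-192-5p of gut and liver, was at 15.16, 15.33, 15.14 and 15.38 after PBS and at 14.75, 14.69, 14.80 and 14.60 after bleomycin, all below. It fell by 0.54 ± 0.10 (adjusted p = 0.000579), a call lost after quantile normalization (-0.27). The liver miRNA miR-122-5p, picked after its values were seen, was at 3.69, 8.95, 6.41 and 8.76 after PBS and at 8.96, 4.24, 4.65 and 5.01 after bleomycin, so the high libraries fell in both groups. miR-217-5p, a pancreas miRNA, was at 1.53, 1.91, 1.04 and 0.70 after PBS and at 4.09, 4.07, 3.97 and 4.76 after bleomycin. All its PBS values lie under the minimum of the filter, which among R213G libraries it passed only through the bleomycin group, so the difference of 2.92 (1.43 with an offset of 8) is given as a description. The same holds for the group means of miR-216b-5p, picked for this reason after its values were seen and counted among the 4.

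**Figure D3:**
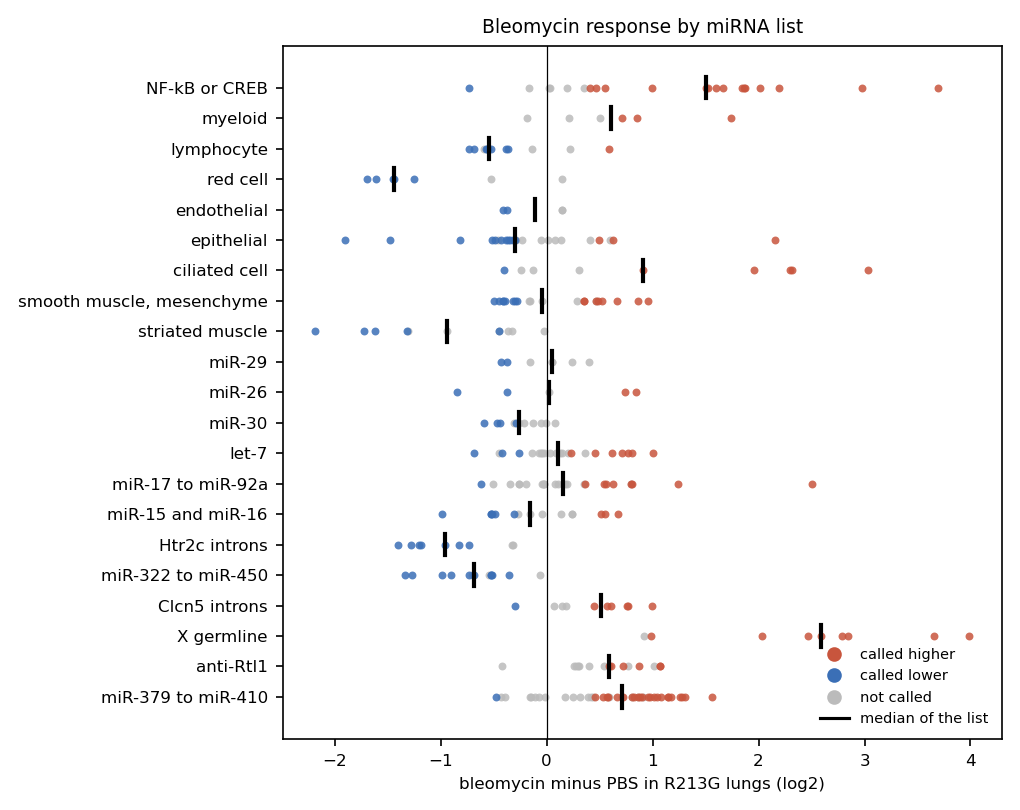
Difference between bleomycin and PBS (log2, x axis) of each tested miRNA strand in 21 lists (rows); red points are called higher, blue lower, grey not called, and black bars are medians. NF-kB or CREB, X germline and miR-379 to miR-410 lists lie to the right, and red cell, Htr2c and miR-322 to miR-450 lists to the left. Differences of the X germline list are partly set by the filter.

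Collagen-repressing miR-29 is known for its loss in fibrosis. Of 7 tested strands 2 were called lower and none higher on the deposited scale (median 0.05), beside 19.8% and 22.2% over all 818. With equal sums none was lower and 1 higher (median 0.26). The median was -0.082 with equal medians, and no strand was called on all 4 scales. miR-29a-3p was at 17.44, 17.41, 17.47 and 17.35 after PBS and at 17.02, 16.74, 17.31 and 16.88 after bleomycin, a fall of 0.43 ± 0.11 (adjusted p = 0.00511), and was not called with equal sums (-0.22) or after quantile normalization (-0.13). miR-29b-3p differed by 0.24 ± 0.21 (adjusted p = 0.367). miR-29c-3p fell by 0.37 ± 0.13 (adjusted p = 0.0335), and without any 1 of 6 of the 8 libraries (all but bleomycin 1 and 3) the call was lost, with differences of -0.26 without bleomycin 2 to -0.39 without PBS 1.

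Of 5 tested strands of the growth-restraining miR-26, 2 rose and 2 fell (median 0.027, or -0.11 with equal medians). miR-26a-5p, among the 4 most abundant miRNAs, was at 21.19, 21.08, 21.03 and 21.01 after PBS and at 20.32, 20.22, 20.28 and 20.11 after bleomycin, a 1.79-fold fall (-0.84 ± 0.12, adjusted p = 6.59e-05) that held on all 4 scales. Its share of the library sum went from 9.90% to 6.41%. The passenger strands miR-26a-1-3p and miR-26a-2-3p rose by 0.85 ± 0.28 and 0.74 ± 0.24 (adjusted p = 0.0239 and 0.0188). Both calls were lost without bleomycin 3 (0.60 and 0.59), PBS 2 (0.77 and 0.65) or PBS 4 (0.75 and 0.69).

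In the miR-30 family, abundant in lung epithelium, 4 of 11 tested strands were called lower and none higher (median -0.26), 1 of them on all 4 scales. With equal sums 1 was lower and 1 higher. That was miR-30d-5p, at 19.48, 19.47, 19.42 and 19.32 after PBS and at 18.89, 18.80, 18.94 and 18.70 after bleomycin, a fall of 0.59 ± 0.11 (adjusted p = 0.0005). miR-30a-5p, a close relative at 20.49, 20.41, 20.52 and 20.43 and then 20.29, 20.18, 20.72 and 20.15, was not called (-0.13 ± 0.14, adjusted p = 0.473, with 0.085 after equal sums and 0.084 after quantile normalization).

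The let-7 family, which represses growth genes, was mixed, with 7 of 22 strands higher and 3 lower (median 0.11), beside 22.2% and 19.8% over all 818. The counts were 8 and 1 with equal sums, and 6 and 4 with equal medians (median -0.02). let-7i-5p rose by 0.46 ± 0.08 (adjusted p = 0.000289) and miR-98-5p by 0.71 ± 0.16 (adjusted p = 0.00207), both on every scale. The abundant let-7f-5p fell by 0.26 ± 0.08 (adjusted p = 0.0181), a call lost without PBS 1 (-0.22) or PBS 4 (-0.25) and with equal sums (-0.05) or quantile normalization. let-7d-5p differed by 0.13 ± 0.11 (adjusted p = 0.357, or -0.0029 with equal medians).

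In the growth-promoting cluster of miR-17 to miR-92a and its paralogues, 8 of 25 tested strands rose and 1 fell (median 0.15), against 6 and 4 with equal medians. miR-18a-5p was at 9.33, 8.59, 9.95 and 8.61 after PBS and at 11.49, 11.02, 12.41 and 11.57 after bleomycin, a rise of 2.50 ± 0.42 (adjusted p = 0.000281). miR-92a-3p, the most abundant strand of the cluster, went the other way: it was at 17.69, 17.67, 17.43 and 17.66 and then at 16.66, 17.24, 16.90 and 17.18, a fall of 0.62 ± 0.12 (adjusted p = 0.000709). Its passenger strand from the chromosome 14 cluster, miR-92a-1-5p, rose by 0.63 ± 0.12 (adjusted p = 0.000709). miR-92a-3p also has a locus on the X chromosome, so the pair does not compare the strands of 1 hairpin. All 3 calls held on every scale.

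The related miR-130 and miR-301 miRNAs rose, with 5 of 7 tested strands called higher and none lower on the deposited scale (median 0.72). With equal medians 4 were higher and 1 lower, and 4 rises held on all 4 scales. miR-301b-3p rose by 1.32 ± 0.16 (adjusted p = 1.73e-05), miR-130a-5p by 1.18 ± 0.20 and miR-301a-3p by 0.75 ± 0.14. Of the 15 tested strands of the cell-cycle-restraining miR-15 and miR-16 family, 3 were higher and 6 lower (median -0.16), but 5 higher and 2 lower with equal sums (median 0.05). miR-16-1-3p rose by 0.67 ± 0.13 (adjusted p = 0.000699). The clusters of miR-23, miR-27 and miR-24 gave 2 lower strands of 11, near the 19.8% over all 818, and none higher. After quantile normalization they gave 2 higher and none lower, and no call held on all 4 scales. miR-27a-3p fell by 0.49 ± 0.11 (adjusted p = 0.0019; -0.13 and not called after quantile normalization).

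The hypoxia list was the hairpin of miR-210, with 1 of 2 strands lower and none higher. Its guide strand miR-210-3p was not called: it was at 10.64, 10.37, 10.59 and 10.56 after PBS and at 10.53, 10.70, 10.58 and 10.63 after bleomycin (0.07 ± 0.10, adjusted p = 0.605, or -0.066 with equal medians and -0.056 after quantile normalization). Its passenger strand miR-210-5p fell by 1.31 ± 0.26 (adjusted p = 0.000983), from 6.17, 6.15, 6.07 and 6.34 to 4.74, 5.03, 4.48 and 5.23. Of 7 tested strands in the HOX gene clusters, 4 were lower and none higher, 1 of them on every scale, miR-10a-3p (-0.68 ± 0.11, adjusted p = 0.000248). miR-10a-5p fell by 0.40 ± 0.11 (adjusted p = 0.00795), but not with equal sums (-0.19) or after quantile normalization, where its difference was 0.041. Of the 7 strands of miR-28, miR-151 and miR-708, 2 were higher and 4 lower, and the 4 falls held on every scale, led by miR-151-3p (-0.65 ± 0.09, adjusted p = 8.11e-05) and miR-708-3p (-0.98 ± 0.19, adjusted p = 0.000926).

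Listed loci on the X chromosome moved in different directions. Of 79 tested miRNAs with a single X-linked locus, 22 rose (27.8%) and 21 fell (26.6%). Over all 650 single-locus miRNAs, 23.8% rose and 18.5% fell. The loci below were chosen with earlier results of these data known. The 5 hairpins in introns of the serotonin receptor gene Htr2c gave 7 lower strands of 9 and none higher (median -0.96), 6 on every scale. miR-1298-5p was at 11.76, 12.15, 11.86 and 11.98 after PBS and at 10.53, 10.51, 10.48 and 10.64 after bleomycin, a 2.64-fold fall (-1.40 ± 0.13, adjusted p = 9.8e-07), the smallest p of any fall. miR-448-3p fell by 1.20 ± 0.17 (adjusted p = 5.07e-05) and miR-764-3p by 1.28 ± 0.23 (adjusted p = 0.000461).

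The cluster of miR-322 to miR-450, linked to muscle differentiation and cell cycle arrest, also fell, in 10 of 13 strands with none higher (median -0.69), 7 on every scale. miR-351-5p was at 15.67, 15.88, 15.32 and 15.74 after PBS and at 14.26, 14.82, 14.04 and 14.43 after bleomycin, a fall of 1.27 ± 0.17 (adjusted p = 3.96e-05). miR-322-3p fell by 0.98 ± 0.17 (adjusted p = 0.000281), miR-542-5p by 0.90 ± 0.14 (adjusted p = 0.000166) and miR-503-3p by 0.52 ± 0.11 (adjusted p = 0.00132). These strands also stand in part in the miR-15 and miR-16 list.

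In contrast, the miRNAs in introns of the chloride transporter gene Clcn5 gave 6 higher and 1 lower of 10 (median 0.51), with 5 of the rises on every scale. miR-501-5p rose by 1.00 ± 0.18 (adjusted p = 0.000489), from 4.91, 5.32, 5.46 and 5.35 to 6.04, 6.20, 6.48 and 6.30. miR-188-5p rose by 0.77 ± 0.14 (adjusted p = 0.000503), and miR-500-3p and miR-501-3p by 0.45 ± 0.10 and 0.57 ± 0.11, though near-identical strands can share reads.

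The X-linked cluster known from testis and germ cells was low in PBS libraries, from 0.00 to 3.99 for the miRNAs printed below. Of 28 deposited strands, 19 did not pass the filter, and a strand could pass through its bleomycin libraries alone, so its difference is partly set by the filter. Of the 9 tested, 8 were called higher and none lower, a count given as a description because of this filter. The 8 calls held on every scale, which does not bear on the filter. miR-470-5p was listed at 0.00 and 0.05 in PBS 1 and 3 and at 3.50 and 1.64 in PBS 2 and 4, and stood at 4.63, 5.24, 5.64 and 5.63 after bleomycin. miR-881-3p was at 0.94, 1.91, 0.02 and 1.73 and then at 3.14, 4.27, 3.71 and 4.64. No PBS library reached the lowest bleomycin library for either. For miR-871-3p (0.89, 3.99, 0.08 and 3.24 after PBS, and 5.07, 5.84, 5.31 and 6.62 after bleomycin) the term for library numbers was itself called (limma, adjusted p = 0.0412), with the higher block of numbers higher. Since many of these PBS values lie close to 0, fold changes are not given.

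The imprinted Dlk1-Dio3 locus on chromosome 12 holds a large miRNA cluster, expressed from the maternal chromosome and active in development. Its cluster of miR-379 to miR-410 gave 23 higher strands of 42 tested and 1 lower (median 0.71), 20 of the rises on every scale, and 21 of its 63 deposited strands did not pass the filter. The rises include miR-154-3p, picked for its level after it was seen, whose PBS mean of 1.89 lies under the minimum of the filter. miR-382-3p was at 4.17, 4.63, 4.23 and 4.17 after PBS and at 5.37, 5.36, 5.19 and 5.58 after bleomycin, a rise of 1.08 ± 0.19 (adjusted p = 0.000392). miR-494-3p rose by 1.17 ± 0.17 (adjusted p = 8.89e-05), miR-495-3p by 1.25 ± 0.23 (adjusted p = 0.0005) and miR-382-5p by 0.95 ± 0.17 (adjusted p = 0.000519). These are low to middling levels, and no groups overlapped for the 4.

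The neighbouring miRNAs transcribed antisense to Rtl1 gave 6 higher of 15 and none lower (median 0.59), all 6 on every scale. miR-434-3p rose by 0.61 ± 0.18 (adjusted p = 0.0134) with overlapping groups, a call lost without PBS 2 (0.50), and miR-540-3p by 1.07 ± 0.26 (adjusted p = 0.00405). Over chromosome 12 as a whole, 35 of 86 tested single-locus miRNAs were higher and 4 lower, beside 155 higher and 120 lower of 650 on all chromosomes.

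At other imprinted loci 3 of 5 strands rose and none fell. miR-298-5p, from the imprinted Gnas region, was at 7.25, 7.83, 7.83 and 7.95 after PBS and at 9.48, 10.04, 9.25 and 9.84 after bleomycin, a rise of 1.94 ± 0.20 (adjusted p = 2.06e-06). miR-296-3p, its neighbour, rose by 1.47 ± 0.26 (adjusted p = 0.000429).

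Of the 10 most abundant miRNAs, 7 were called lower on the deposited scale and none higher, and 3 of these falls held on all 4 scales, those of miR-26a-5p, miR-181a-5p and miR-30d-5p. The share of the library sum held by miR-181a-5p went from 3.65% to 2.57%, and that of miR-30d-5p from 3.14% to 2.43%. miR-143-3p held 14.2% after PBS and 13.3% after bleomycin. miR-22-3p, a miRNA of many tissues, was at 20.73, 20.78, 20.72 and 20.67 and then at 20.77, 20.67, 20.48 and 20.66 (-0.08 ± 0.08, adjusted p = 0.459), with overlapping groups. It was at 0.13 with equal sums and at 0.28, called higher, after quantile normalization.

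Some of the clearest falls belonged to no list. miR-676-3p was at 12.13, 11.96, 11.86 and 12.21 after PBS and at 11.10, 11.27, 11.24 and 11.31 after bleomycin (-0.81 ± 0.10, adjusted p = 1.73e-05), and its opposite strand miR-676-5p fell by 0.67 ± 0.10 (adjusted p = 8.89e-05). miR-328-3p fell by 0.65 ± 0.09 (adjusted p = 3.65e-05), from 12.66, 12.66, 12.51 and 12.66 to 11.90, 11.91, 12.12 and 11.99. miR-7046-3p fell by 1.46 ± 0.22 (adjusted p = 0.000109).

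miRNAs with 1 seed can bind the same sites, so their summed level was tested as well. A tested miRNA without a RefSeq entry is left out of the sums. The 688 sequences fell into 589 seed families, of which 136 rose (23.1%) and 108 fell (18.3%), 244 in all (41.4%). Of the 62 families with at least 2 tested members, 21 rose, 15 fell and 26 were not called. In 9 of them all members were called higher, in 5 all were called lower, and in 6 members were called in both directions.

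The summed level of miR-132-3p and miR-212-3p rose by 1.63 ± 0.12 (adjusted p = 2.07e-08), the smallest p of these families. For the miR-146 seed the rise of 1 member outweighed the fall of the other: the sum stood at 16.88, 17.19, 17.04 and 16.98 after PBS and at 17.76, 17.72, 18.21 and 17.55 after bleomycin, a rise of 0.79 ± 0.12 (adjusted p = 6.81e-05). The sum of miR-34a-5p, miR-34b-5p, miR-449a-5p and miR-449c-5p rose by 0.94 ± 0.17 (adjusted p = 0.000426), where 3 of the 4 members were called. This sum went from 14.20 to 15.14 and leaves out the related miR-34c-5p, which was more abundant. miR-34c-5p stood at 17.01 after PBS and 16.88 after bleomycin (-0.13 ± 0.15, limma adjusted p = 0.5). The rise therefore describes only the 4 summed miRNAs, not all miR-34 and miR-449 miRNAs together. A sum that includes miR-34c-5p was not tested. The sum of miR-18a-5p and miR-18b-5p rose by 2.48 ± 0.40, and that of miR-7a-5p and miR-7b-5p by 1.07 ± 0.20. For miR-7b-5p the term for library numbers was itself called (-1.28, limma adjusted p = 0.018), with the higher block of numbers lower.

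Among families that fell, miR-26a-5p and miR-26b-5p together stood at 21.31, 21.20, 21.16 and 21.13 after PBS and at 20.49, 20.38, 20.46 and 20.28 after bleomycin, a fall of 0.80 ± 0.11 (adjusted p = 3.96e-05). The miR-181 seed fell by 0.72 ± 0.13 with all 4 members called lower. The miR-125 seed, shared by miR-125a-5p, miR-125b-5p and the X-linked miR-351-5p, fell by 0.53 ± 0.08 (adjusted p = 6.81e-05) and had all 3 members called lower. The miR-92 seed fell by 0.55 ± 0.11 with miR-25-3p differing by 0.08 ± 0.11 (-0.058 with equal medians), and the seed of miR-200b, miR-200c and miR-429 fell by 0.44 ± 0.09. The sums of single families are not given on the other scales. There miR-200b-3p was not called with equal sums (-0.21) or quantile normalization (-0.22). After quantile normalization miR-429-3p was not called either (-0.23), while miR-200c-3p was called lower (-0.35). The 9 members of the let-7 seed, of which 3 rose and 1 fell, gave a sum that was not called (-0.02 ± 0.08, adjusted p = 0.879).

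**Figure D4:**
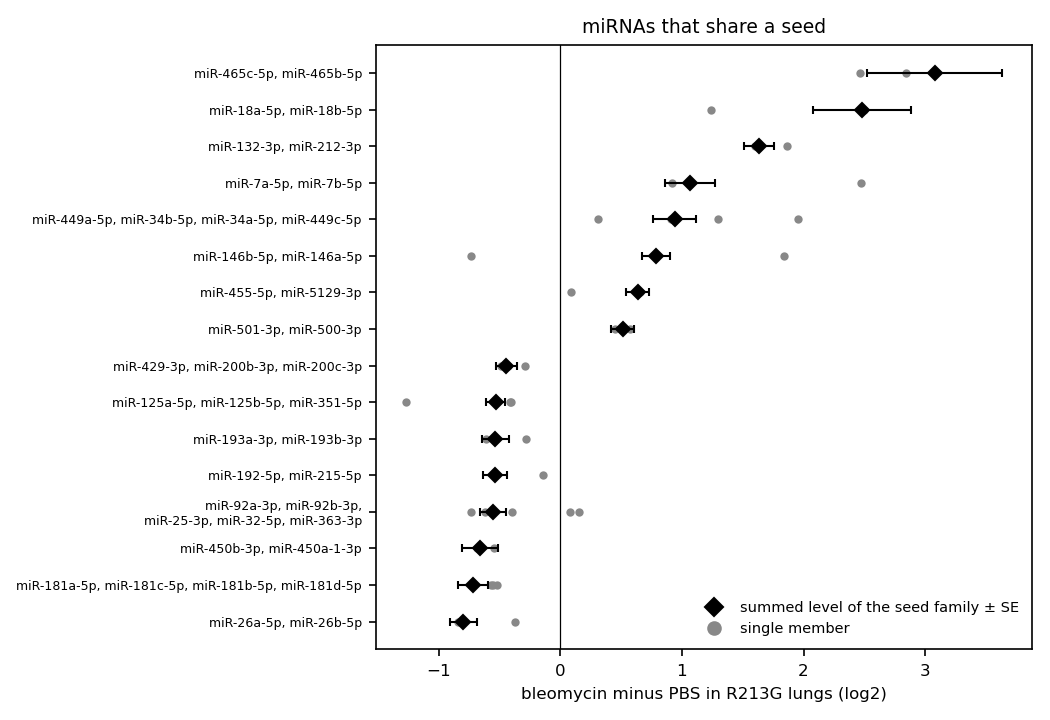
Difference between bleomycin and PBS (log2, x axis) for 16 groups of miRNAs with a common seed; diamonds are the summed level ± SE and grey points the single members. The miR-146 members lie on both sides of 0 with the sum at 0.79, and the miR-181 and miR-125 members all lie below 0. The miR-34 and miR-449 group does not include miR-34c-5p. The miR-465 group had a PBS mean of 1.85, under the minimum of the filter, so its rise is partly set by the filter.

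The 2 strands of 1 hairpin come from a shared precursor, and their ratio within a library does not change when the whole library is multiplied by a factor. Quantile normalization, which is not such a factor, called 55 ratios. It was tested in the 234 hairpins with both strands past the filter. The 5p strand gained on the 3p strand in 34 (14.5%) and lost in 25 (10.7%), 59 in all (25.2%). Without the filter the counts were 12 gains and 16 losses, so the balance turns with the filter. Both strands rose in 29 hairpins and fell in 28, only 1 strand was called in 104 and neither in 69. In 4 hairpins the strands were called in opposite directions: miR-125a, miR-455, miR-671 and miR-672, the last pair named after their values were seen.

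miR-335, from Mest, changed its dominant strand. The 5p strand exceeded the 3p strand by 0.40, 0.43, 0.33 and 0.29 log2 units in the PBS libraries and was below it by -0.90, -0.85, -1.04 and -1.04 after bleomycin. The change was -1.32 ± 0.12 (adjusted p = 1.31e-05). Of the 2 strands miR-335-3p rose by 1.30 ± 0.11 (adjusted p = 1.55e-07) from 12.12, 12.26, 12.12 and 12.11 to 13.46, 13.42, 13.47 and 13.47. miR-335-5p stood at 12.52, 12.69, 12.45 and 12.40 and then at 12.57, 12.57, 12.43 and 12.43 (-0.02 ± 0.09, adjusted p = 0.912, turning to 0.20 with equal sums, 0.043 without PBS 2, 0.0069 without bleomycin 3 and 0.0089 without bleomycin 4).

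In miR-455 the 5p strand gained 1.12 ± 0.14 on the 3p strand (adjusted p = 0.000154), as miR-455-5p rose by 0.65 ± 0.10 and miR-455-3p fell by 0.47 ± 0.12 (-0.25 and not called with equal sums). In miR-125a the 3p strand gained, by 1.07 ± 0.14 (the ratio changed by -1.07, adjusted p = 0.000154), as miR-125a-3p rose by 0.66 ± 0.13 while the guide miR-125a-5p fell by 0.41 ± 0.08, a fall not called with equal sums (-0.20) or after quantile normalization (-0.08). The miR-223 ratio moved by 0.89 ± 0.12 toward the 5p strand (adjusted p = 0.000184), from -5.18, -5.23, -4.88 and -5.20 to -4.15, -4.33, -4.26 and -4.18. In miR-1247 the 3p strand gained (-1.97 ± 0.26), where miR-1247-3p rose by 1.72 ± 0.26 (adjusted p = 0.000121) and miR-1247-5p differed by -0.25 ± 0.17. In miR-200c the ratio moved by 0.92 ± 0.14 toward the rare 5p strand. For miR-335, miR-455, miR-125a, miR-223, miR-1247 and miR-200c the groups did not overlap.

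**Figure D5:**
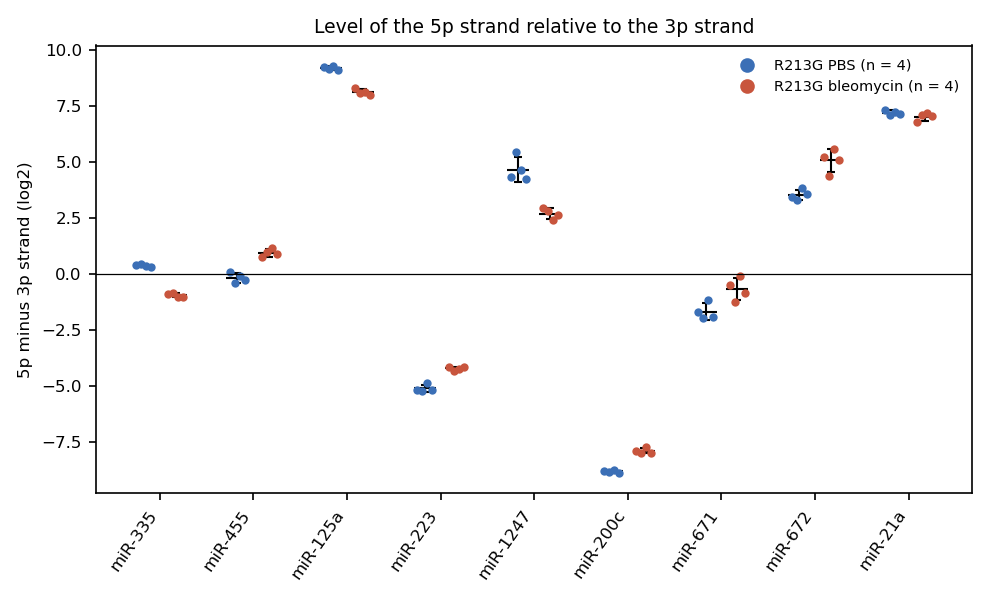
Level of the 5p strand minus the 3p strand (log2, y axis) of 9 hairpins in each R213G library; points are libraries (blue PBS, red bleomycin) and bars the mean ± SD, n = 4. miR-335 goes from 0.29 to 0.43 after PBS to -1.04 to -0.85 after bleomycin and crosses the line at 0.

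The same contrast in WT lungs, which shares no library with this one, called 134 miRNAs higher (16.4%) and 84 lower (10.3%) with 1 PBS library fewer. Both contrasts took each miRNA's variance from 1 fit of all 15 libraries, so their calls are not independent. Both genotypes called 104 miRNAs higher and 73 lower, and 166 were called in R213G only and 40 in WT only. Over the 818 miRNAs, 80.1% had the same sign in both genotypes, and the correlation of the differences was r = 0.78, across miRNAs, which are not independent replicates. miR-21a-5p differed by 2.02 in R213G and 1.94 in WT lungs, and miR-146b-5p by 1.84 and 1.70.

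The test of the difference between the 2 responses called 0 of 818 miRNAs (0%) with limma, and 65 (7.95%) had an unadjusted p under 0.05. The 95% interval of that difference had a median half-width of 0.70 log2 units, or 0.40 for miRNAs with a mean level above 8. Differences between genotypes below that size may not be detectable here. Larger ones can also go uncalled, because these intervals are not adjusted over the 818 miRNAs. For miR-21a-5p the interval ran from -0.34 to 0.49, and for miR-34a-5p from -0.13 to 0.58. The 5 smallest p belonged to miR-96-3p, miR-466b-3p, miR-150-5p, miR-345-5p and miR-5100, with adjusted p of 0.399 to 0.523. Of these, miR-150-5p differed by -0.69 in R213G and 0.07 in WT lungs, a difference of -0.76 ± 0.22, and WT levels were 15.82, 16.18 and 16.05 after PBS and 16.47, 15.99, 15.94 and 15.95 after bleomycin. miR-345-5p differed by 0.70 in R213G and -0.18 in WT lungs. The red cell miR-451a differed by -0.52 in R213G and -2.03 in WT lungs, a difference of 1.51 (interval 0.15 to 2.88, adjusted p = 0.601). miR-466b-3p was the only miRNA called in opposite directions, -0.81 in R213G (adjusted p = 0.0406) and 0.97 in WT (adjusted p = 0.0345), but the R213G call was lost without bleomycin 1, 3 or 4 (-0.78, -0.60 and -0.78), without PBS 1, 3 or 4 (-0.72, -0.69 and -0.87), and with equal sums (-0.61). At an unchanged difference it was also lost without the filter (adjusted p = 0.0857), with the R213G libraries alone (0.064), with the replicate block (0.0968) and with the term for library number (0.0642). The difference was -1.48 in the lower block of library numbers and -0.13 in the higher. None of these differences between genotypes passed the test.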

How the data were processed

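Small RNA from whole lung was sequenced in 15 libraries, of which the 8 R213G libraries are described and the 7 WT libraries enter the model and the comparison of genotypes. The authors used Bowtie2 2.3.2, SAMtools 1.9 and edgeR, per the submitters' processing notes; the genome build and miRBase release are not stated there. The deposited table holds log2 values per library, which from the values were taken to be log2(1 + equalized count). This is an inference, because the name of the table mentions RPKM. Read counts could not be recovered, so no count model was run and no counting interval is given. The 20 columns of the authors' own comparisons were not used.

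All 15 libraries were fitted together in limma 3.58.1 (R 4.3.3), each group with its own mean and the variance prior following the level. Benjamini-Hochberg adjustment ran over the 818 tested miRNAs, the seed families or the hairpins. Reads shared by near-identical miRNAs cannot be told apart. The script was tested on simulated data. Host genes came from GENCODE vM21 and RefSeq sequences from GRCm38.p6. The miRNAs named are those with the smallest p or largest change per direction, up to 4 per list, the 10 most abundant, and a fixed set of well-known ones; the few picked otherwise are said to be. The members, the 29 lists and the rule were chosen with earlier results of these data known. Alternatives left out each library, changed the filter, offset, scale, trend and samples fitted, and added a term for replicate or library number; the equal-sums scale was added after seeing the data.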

Additional observations from a re-analysis of the deposited data

Results flagged for a closer look

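In 17 of the 362 groups of 4 libraries examined, 1 library stood apart from the other 3 by Dixon's criterion, a number near the 1 in 20 that chance gives. In PBS 1 these were let-7i-5p (17.6) and miR-21a-3p (10.5), and in PBS 2 miR-100-5p (13.7), miR-335-3p (12.3) and miR-382-3p (4.63). In PBS 3 they were miR-142a-3p (13.1), miR-200b-3p (16.1), miR-328-3p (12.5), miR-92a-3p (17.4), miR-96-3p (3.05), the summed miR-92 seed family (18.4) and the strand ratio of miR-223 (-4.88). In PBS 4 it was miR-24-2-5p (14.5). After bleomycin they were miR-335-3p in bleomycin 2 (13.4), miR-1b-5p in bleomycin 3 (5.94), and miR-193b-3p (9.48) and miR-217-5p (4.76) in bleomycin 4. PBS 3 held 7 of the 17.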

How the results depend on the processing

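The number of miRNAs called ranged from 289 (without PBS 4) to 342 (without bleomycin 2) when 1 library was left out, and no miRNA was then called in the opposite direction. It was 340 without the filter, 303 with the stricter filter, 346 with an offset of 8, 332 without the trend, 352 with the R213G libraries alone, 384 with a term for library number, and 335, 347 and 315 with quantile normalization, equal medians and equal sums. Seed families called ranged from 210 to 252 and strand ratios from 44 to 72 when 1 library was left out. Without the filter, strand ratios called dropped to 28 of 518 hairpins, 12 where the 5p strand gained and 16 where it lost. The test of the difference from WT called 0 in each alternative run for it, which left out libraries or changed the filter, offset, scale or trend. It was not run with the replicate block or the term for library number. Replicate numbers were used as a replicate block in a separate fit, which called 367 miRNAs, 266 seed families and 65 strand ratios. Same-numbered bleomycin and PBS libraries had correlations of their deviations of -0.14, 0.14, 0.26 and 0.14, so 1 of the 4 was under 0.1 and the libraries were not treated as paired. Of the 8 pairings within a block of library numbers 7 were positive, which does not exclude shared effects of the blocks.

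Over 159 named miRNAs the alternatives gave the same direction and call in 2705 cases, lost a call in 104, gained one in 19 and turned the sign in 24. Of those that turned, miR-10a-5p alone had been called. When 1 library was left out, miR-5129-3p ranged from -0.029 to 0.20, miR-215-5p from -0.29 to 0.064, miR-335-5p from -0.054 to 0.043 and miR-96-3p from -0.54 to 0.046. With equal medians let-7d-5p was at -0.0029, miR-210-3p at -0.066, miR-25-3p at -0.058 and miR-5129-3p at -0.049. After quantile normalization miR-10a-5p was at 0.041, miR-210-3p at -0.056, miR-22-3p at 0.28, miR-30a-5p at 0.084 and miR-5129-3p at -0.038. With equal sums miR-215-5p was at 0.067, miR-22-3p at 0.13, miR-223-3p at 0.032, miR-23a-3p at 0.019, miR-24-1-5p at 0.012, miR-27b-3p at 0.073, miR-30a-5p at 0.085 and miR-335-5p at 0.20. The cause was not tested. Read depth is unknown, and values near 0 carry the least precision.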
